A study of Homo sapiens with 12 samples.

Results

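The genes described here are 8 members of the prosurvival machinery of apoptosis, BCL2, BCL2L1, BCL2L2, MCL1, BCL2A1, XIAP, BIRC2 and BIRC6. They were picked by symbol from the 36482 genes left after the deposited gene counts were summed by symbol. Each of the 8 symbols stood for 1 Ensembl gene. RNA was sequenced from 12 libraries of cell lines, which fell into 5 groups. TOV-112D cells, an ovarian carcinoma line whose endogenous p53 carries the R175H substitution, were treated for 3 h with DMSO, the vehicle, or with the small molecules UCI-1001 or UCI-1014, with n = 2 libraries per group. Saos-2 cells, an osteosarcoma line, were either the parental p53-null cells or a line expressing p53-WT from a lentiviral, doxycycline-inducible construct, both labelled with 16 h of induction, with n = 3 libraries per group. The labels give no dose. The paper states a dose for the cells profiled with UCI-1001, but the dose used for the UCI-1014 libraries is not given in the sources used here. The labels also do not say whether the libraries of a group came from separate cultures. The p-values therefore measure the spread between these libraries, which may be technical.

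Apoptosis through mitochondria is controlled by the BCL2 family. BCL2, BCL-xL (from BCL2L1), BCL-w (from BCL2L2), MCL1 and BFL-1 (from BCL2A1) hold the pore-forming effectors BAX and BAK in check, and BH3-only proteins such as PUMA (from BBC3) and NOXA (from PMAIP1) bind and neutralise them. Once the outer mitochondrial membrane is permeable, cytochrome c assembles APAF1 and caspase-9 into the apoptosome. Of the inhibitor of apoptosis proteins (IAPs), XIAP acts at that later stage, where it binds and inhibits caspases. cIAP1 (from BIRC2) is a ubiquitin ligase of TNF receptor signalling, and BIRC6 is a very large IAP that also carries a ubiquitin-conjugating domain. MCL1 differs from its relatives in its turnover, since both its RNA and its protein are short-lived. Wild-type p53 is a transcription factor that activates several BH3-only genes and BAX.

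Total counts lay between 17762027 and 20717898 per TOV-112D library and between 19593655 and 24629558 per Saos-2 library. Levels within a gene are given as CPM, counts relative to the TMM-scaled library size, and levels between genes as TPM, the deposited abundance that corrects for transcript length. Several markers went against the labelled cell types. In the libraries labelled Saos-2, the osteoblast gene ALPL reached at most 0.487 CPM and COL1A1 at most 1.95 CPM, without TMM scaling, whereas the keratin genes KRT8 and KRT18 had 209 to 592 CPM. In the libraries labelled TOV-112D, KRT18 had 0 counts in all 6, KRT8 reached at most 0.483 CPM, and the fibroblast genes LUM and DCN had 156 to 566 CPM. The epithelial and ovarian markers KRT7, PAX8 and WT1 had 2.195 to 15.1 CPM in the Saos-2 libraries. In the TOV-112D libraries, KRT7 and PAX8 reached at most 0.0563 CPM and WT1 at most 2.17 CPM. ALPL and COL1A1 were higher in TOV-112D than in Saos-2 libraries, with 1.62 to 2.365 and 47.7 to 50.9 CPM. SP7, another osteoblast gene, had 0 CPM in Saos-2 and at most 0.392 CPM in TOV-112D libraries. IBSP and MUC16 were near 0 in all libraries. SPP1 and EPCAM went with the labels. The osteoblast gene SPP1 had 14.3 to 41.0 CPM in the Saos-2 libraries and at most 0.619 CPM in the TOV-112D libraries. The epithelial gene EPCAM had 1.87 to 3.19 CPM in the TOV-112D libraries and at most 0.0966 CPM in the Saos-2 libraries. RUNX2 overlapped, with 3.82 to 13.1 CPM in Saos-2 and 4.44 to 9.51 CPM in TOV-112D libraries. Summed over the list, the epithelial and ovarian markers had 779 to 1002 CPM in Saos-2 and 3.43 to 5.31 CPM in TOV-112D libraries. The osteoblast markers summed to 27.6 to 45.8 CPM in Saos-2 and 55.3 to 62.3 CPM in TOV-112D libraries. The listed markers thus went mostly against the labels. The identity of the cells was not tested, and the cell line names below are those of the labels. Replicate 1 of each Saos-2 line stood apart. Divided by its degrees of freedom, the chi-square over genes was 23.01 to 38.4 between it and the other replicates of its line, against 3.07 to 3.79 between those others and 2.08 to 3.73 between the TOV-112D replicates. Calls in the Saos-2 libraries were repeated without replicate 1 of both lines, for the members and for the other apoptosis genes with p53-WT, and values are given where a call or size changed.

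MCL1 (ENSG00000143384, chr1:150560895-150579738, minus strand, GRCh38) encodes a protein known for its rapid turnover, and its main transcript, MCL1-202, has 3 exons and an open reading frame of 350 codons without the stop. A shorter transcript, MCL1-201, lacks exon 2 and has 271 codons. Exon 2, 248 bases at chr1:150578244-150578491, is shown because its presence separates the long transcript from the short one. Capitals mark AACTGGGG, letters that encode the start of the asparagine-tryptophan-glycine core of the BH1 region. In the junctions, capitals mark the bases that follow the splice site.
MCL1 exon 2: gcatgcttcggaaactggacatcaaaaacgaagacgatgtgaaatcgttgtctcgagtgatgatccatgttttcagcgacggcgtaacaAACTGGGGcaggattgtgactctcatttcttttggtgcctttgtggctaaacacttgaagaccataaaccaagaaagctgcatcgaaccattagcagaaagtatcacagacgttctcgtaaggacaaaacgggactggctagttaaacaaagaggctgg
MCL1-202 exon 1 to exon 2: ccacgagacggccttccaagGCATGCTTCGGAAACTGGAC
MCL1-201 exon 1 to the last exon: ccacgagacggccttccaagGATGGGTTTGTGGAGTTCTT

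BCL2L1 (ENSG00000171552, chr20:31664452-31723989, minus strand) has a corresponding pair of forms. BCL2L1-201 has an open reading frame of 233 codons without the stop and encodes BCL-xL. BCL2L1-202 and BCL2L1-205 splice from an earlier site in the same exon, which removes 189 bases at chr20:31721655-31721843, and their frame has 170 codons, that of BCL-xS, a form known to promote apoptosis. The segment is shown with the same 8 letters in capitals, which occur once in it, as they do once in MCL1 exon 2.
BCL2L1 exon segment: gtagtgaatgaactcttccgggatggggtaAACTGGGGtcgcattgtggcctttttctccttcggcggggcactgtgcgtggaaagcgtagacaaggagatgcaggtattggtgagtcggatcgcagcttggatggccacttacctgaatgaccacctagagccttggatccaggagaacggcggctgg
BCL2L1-201 junction: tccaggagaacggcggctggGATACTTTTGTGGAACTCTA
BCL2L1-205 junction: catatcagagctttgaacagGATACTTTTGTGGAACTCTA

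The remaining members lie on other chromosomes, each encoded by a protein-coding gene. BCL2 (ENSG00000171791) lies at chr18:63123346-63320128 on the minus strand, BCL2L2 (ENSG00000129473) at chr14:23298790-23311751 on the plus strand and BCL2A1 (ENSG00000140379) at chr15:79960892-79971196 on the minus strand. The IAP genes XIAP (ENSG00000101966, chrX:123859712-123913972), BIRC2 (ENSG00000110330, chr11:102347211-102378670) and BIRC6 (ENSG00000115760, chr2:32357023-32619571) are all on the plus strand.

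MCL1 was the most abundant of the 8 RNAs in the TOV-112D libraries, whereas BCL2L1 led or shared the lead in the Saos-2 libraries. In DMSO-treated TOV-112D cells, MCL1 had 149 ± 5.45 TPM (SD, n = 2), followed by BCL2L1 with 41.9 ± 3.91, XIAP with 29.98 ± 0.999, BIRC6 with 21.3 ± 0.394, BCL2L2 with 19.8 ± 2.35 and BIRC2 with 15.5 ± 1.47 TPM. BCL2 was low, at 1.80 ± 0.247 TPM, and BCL2A1 was listed at 0 in both libraries. The ranges of neighbours in this order did not overlap, except those of BIRC6 and BCL2L2. In p53-null Saos-2 cells, BCL2L1 had 115.7 ± 9.05 and MCL1 114.7 ± 15 TPM (n = 3), and their ranges overlapped. BIRC2 followed with 44.1 ± 3.25 TPM, and its range overlapped that of no neighbour in the order. BIRC6, XIAP and BCL2L2 lay between 9.92 and 18.1 TPM with overlapping ranges of neighbours. In p53-WT Saos-2 cells, BCL2L1 with 167 ± 9.30 TPM stood above MCL1 with 119 ± 28.5 TPM, without overlap. BCL2A1 and BCL2 were the lowest there, at 1.79 ± 0.164 and 0.702 ± 0.164 TPM.

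**Figure D1:**
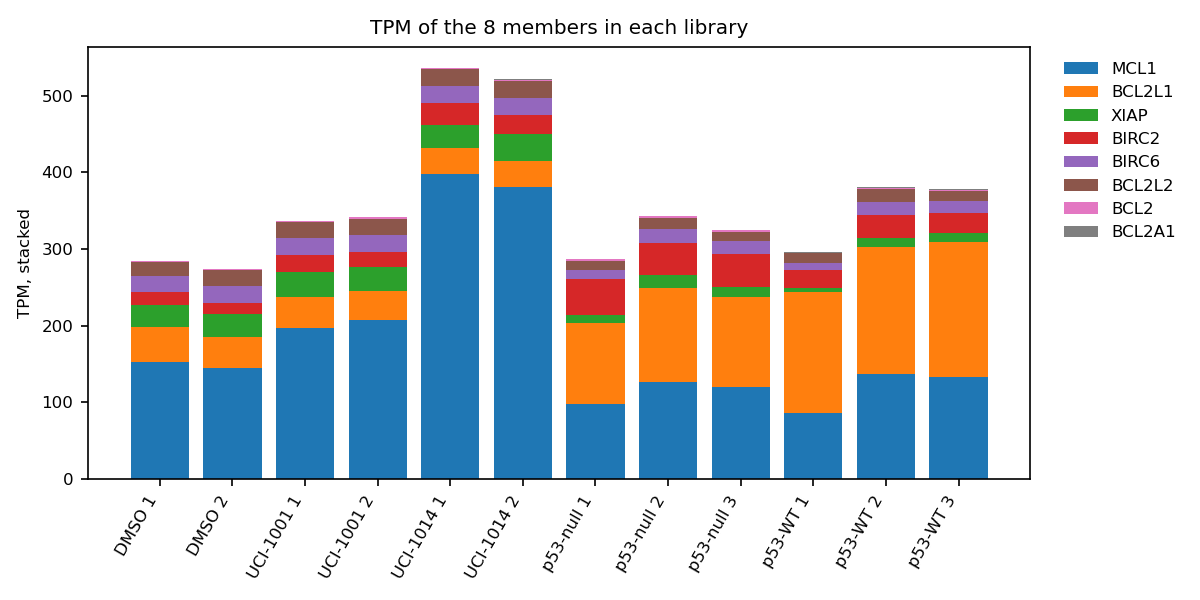
Stacked TPM (vertical axis) of the 8 members in each of the 12 libraries (horizontal axis, group and replicate number). MCL1 makes up 53.01% to 53.8% of the sum in the DMSO libraries and 73.0% to 74.2% in the UCI-1014 libraries, whereas BCL2L1 takes the largest part in the p53-WT libraries.

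As a share of the summed TPM of the 8 members, MCL1 took 53.8% and 53.01% in the DMSO libraries, 58.5% and 60.7% in the UCI-1001 libraries and 74.2% and 73.0% in the UCI-1014 libraries. The ranges of these groups did not overlap. In the Saos-2 libraries the share was 34.1% to 36.9% for p53-null and 28.9% to 36.0% for p53-WT cells, with p53-WT replicate 1 the lowest. These shares are descriptions of the deposited TPM, with no test.

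The comparison of the lines without compound addressed how far the starting levels differed between DMSO-treated TOV-112D cells and p53-null Saos-2 cells. The cell line, its treatment and its processing cannot be told apart in it, nor can fewer cells of a kind and less RNA per cell in any of these bulk libraries. BCL2L1 was lower in TOV-112D cells, with 45.5 ± 0.789 CPM (n = 2) against 166 ± 1.60 CPM (n = 3) (log2 fold change -1.87, SE 0.09, edgeR adjusted p = 1.4e-10). BIRC2 (log2 fold change -1.55, SE 0.14) and BCL2 (-0.71, SE 0.15) were also lower. XIAP was higher, with 119.7 ± 4.06 against 46.6 ± 4.45 CPM (log2 fold change 1.36, SE 0.21, adjusted p = 3.8e-05). BIRC6 (0.81, SE 0.14) and BCL2L2 (0.25, SE 0.10, adjusted p = 0.0357) were also higher. MCL1 had 304 ± 2.44 and 306 ± 20.5 CPM, a log2 fold change of -0.01 with a 95% interval from -0.28 to 0.27. Thus 6 of the 8 members differed, in a comparison in which 74.6% of the 15790 tested genes did. BCL2A1 was at or under 3 counts in all 5 libraries, and no fold is given. Without replicate 1 of both Saos-2 lines, BCL2L2 no longer passed (0.13, adjusted p = 0.166) and MCL1 was lower in TOV-112D cells (-0.14, adjusted p = 0.0133). For this comparison, that setting was not planned beforehand. BCL2L2 also failed without either DMSO library or without p53-null replicate 1 or 2 (0.20 to 0.29). With an offset for transcript length, BIRC6 no longer passed (0.17, adjusted p = 0.351).

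The question put to the compounds was whether they change transcription in cells with mutant p53. UCI-1001 raised MCL1 in TOV-112D cells, and by smaller amounts XIAP and BCL2L2. MCL1 had 311 and 315 CPM in the DMSO libraries and 397 and 440.3 CPM in the UCI-1001 libraries. Both treated libraries lay above both controls. The log2 fold change was 0.42 (with SE 0.05, edgeR adjusted p = 2.1e-05), or 1.34-fold. XIAP, the caspase inhibitor, had 119.9 and 126 CPM with DMSO and 135.5 and 140.6 CPM with UCI-1001 (log2 fold change 0.17, SE 0.04, adjusted p = 0.0179). BCL2L2 had 25.3 and 23.9 CPM with DMSO and 31.45 and 27.8 CPM with UCI-1001 (log2 fold change 0.27, SE 0.08, adjusted p = 0.0356). In CPM the groups did not overlap for either gene. In TPM those of BCL2L2 did, with 18.1 and 21.4 TPM with DMSO and 21.35 and 21.6 TPM with UCI-1001.

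The other tested members did not pass with UCI-1001. BIRC2 had 38.2 and 31.7 CPM with DMSO and 42.4 and 40.1 CPM with UCI-1001 (log2 fold change 0.24, SE 0.08, adjusted p = 0.0647). BCL2L1 had 47.3 and 46.2 CPM against 44.6 and 41.2 CPM (-0.12, 95% interval -0.26 to 0.01). These intervals leave room for small changes, since a missed threshold does not show equal levels. For BCL2 the log2 fold change was -0.25 (95% interval -0.58 to 0.08) and for BIRC6 0.06 (-0.03 to 0.15). BCL2A1 had 0 counts in both DMSO libraries and at most 2 in any TOV-112D library, fewer than the 3 counts set as floor (0.149 to 0.179 CPM), and was not tested. In all, 3 of the 7 tested members passed and all 3 rose, where 15.8% of the 14174 tested genes passed. With a change exceeding 1 on the log2 scale, 0 members and 1.31% of all genes passed, and at an adjusted p under 0.001, 1 member and 3.89% of all genes did. The median log2 fold change was 0.17 over the members and 0.00 over all genes. The calls of XIAP and BCL2L2 were the less firm ones: DESeq2 gave adjusted p = 0.0755 and 0.214, and XIAP failed without either DMSO library or without UCI-1001 replicate 2 (0.13 to 0.20). BCL2L2 failed without either DMSO library or without UCI-1001 replicate 1 (0.18 to 0.31), and BIRC2 passed without DMSO replicate 1 (0.38, adjusted p = 0.0247). In a fit of all 12 libraries, in which the wider spread of the Saos-2 libraries enters, no member passed with UCI-1001, and MCL1 had a log2 fold change of 0.39 (adjusted p = 0.25).

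**Figure D2:**
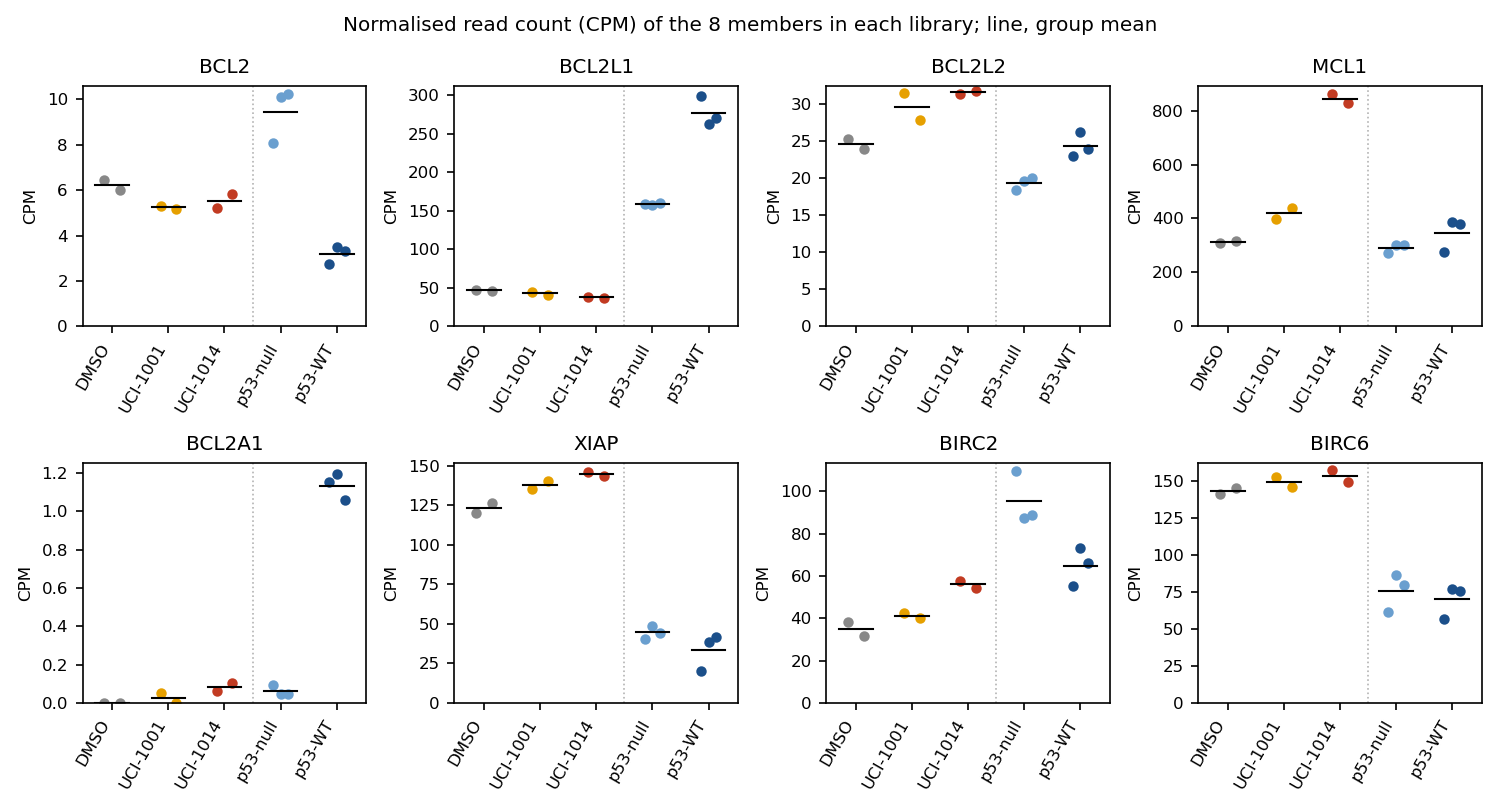
CPM (vertical axis, from 0, a scale per panel) of the 8 members in each library, by group (horizontal axis). Points are libraries and lines are group means, with the TOV-112D groups to the left of the dotted line and the Saos-2 groups to the right. The UCI-1014 libraries have 862 and 826 CPM of MCL1, above all 10 other libraries.

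UCI-1014 raised MCL1 more than any other member, and it raised BIRC2, BCL2L2 and XIAP and lowered BCL2L1. MCL1 had 862 and 826 CPM with UCI-1014, against 311 and 315 CPM with DMSO. The log2 fold change was 1.43 (with SE 0.05, edgeR adjusted p = 5.3e-12), or 2.7-fold. It was the member with the largest change and the only 1 of the 7 whose log2 fold change exceeded 1, where 5.48% of all tested genes passed with such a change. BIRC2, the gene of cIAP1, had 57.6 and 54.4 CPM, against 38.2 and 31.7 CPM (log2 fold change 0.68, SE 0.08, adjusted p = 6.9e-06). BCL2L2 had 31.4 and 31.7 CPM (log2 fold change 0.36, SE 0.08, adjusted p = 0.00199). XIAP had 146 and 143.5 CPM (log2 fold change 0.23, SE 0.04, adjusted p = 4.9e-04). In CPM the treated and control libraries did not overlap for any of these genes. In TPM those of XIAP did, with 30.5 and 34.8 against 29.3 and 30.7 TPM.

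BCL2L1 moved in the other direction, with 37.9 and 37.2 CPM with UCI-1014 against 47.3 and 46.2 CPM with DMSO (log2 fold change -0.32, SE 0.07, adjusted p = 0.00101). BIRC6 had 157 and 149 CPM against 141 and 145 CPM, without overlap, but did not pass (0.10, SE 0.04, adjusted p = 0.0832). It passed without UCI-1014 replicate 2 (0.15, adjusted p = 0.0316). BCL2 had 5.20 and 5.83 CPM against 6.44 and 6.01 CPM (-0.17, 95% interval -0.50 to 0.16). Of the 7 tested members, 4 rose and 1 fell, where 47.1% of all tested genes passed. Their median log2 fold change was 0.23, and that of all genes -0.02. In the fit of all 12 libraries, MCL1, BIRC2 and BCL2L1 passed, whereas BCL2L2 (0.30, adjusted p = 0.0638) and XIAP (0.17, adjusted p = 0.645) did not.

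Both compounds were compared directly in 1 pair, at the same time of 3 h. Their doses cannot be set side by side, because that of the UCI-1014 libraries is not given, and a difference in response therefore cannot be told apart from a difference in dose. MCL1 was higher with UCI-1014 than with UCI-1001, by 2.02-fold (log2 95% interval 0.91 to 1.11, edgeR adjusted p = 9.7e-10). BIRC2 was also higher (log2 fold change 0.44, SE 0.08, adjusted p = 6.2e-04). BCL2L1 was lower (log2 fold change -0.19, SE 0.07, adjusted p = 0.0363), but this call was lost with DESeq2 (adjusted p = 0.2), in the fit of all 12 libraries, with the length offset, and when UCI-1001 replicate 1 (-0.13, adjusted p = 0.309) or either UCI-1014 library (-0.19 and -0.17) was left out. The remaining differences did not pass. Their 95% intervals ran from -0.08 to 0.26 for BCL2L2, from -0.03 to 0.16 for XIAP, from -0.06 to 0.13 for BIRC6 and from -0.26 to 0.41 for BCL2. Thus 3 of the 7 tested members differed between the compounds, where 31.1% of all tested genes did. In the fit of all 12 libraries only MCL1 passed, and BIRC2 did not (0.41, adjusted p = 0.132).

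**Figure D3:**
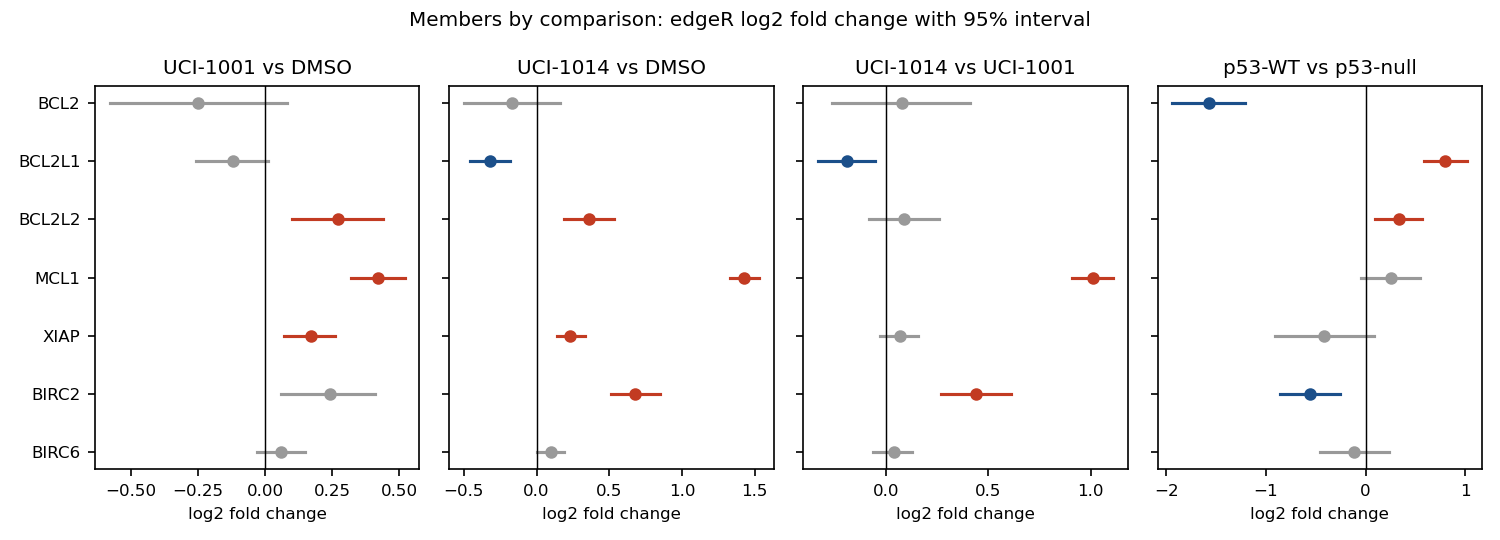
edgeR log2 fold change (horizontal axis, a scale per panel) with 95% interval for 7 members (vertical axis) in 4 comparisons. Red marks higher and blue lower at an adjusted p under 0.05, and grey marks members that did not pass. MCL1 stands at 0.42 with UCI-1001, 1.43 with UCI-1014 and 0.25 with p53-WT. BCL2A1 is left out because of its low counts.

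The Saos-2 pair addressed which genes respond to wild-type p53. It sets a lentiviral line against its parental cells, so that p53-WT cannot be told apart from the making of that line. With p53-WT, BCL2L1, BCL2L2 and BCL2A1 rose, whereas BCL2 and BIRC2 fell. BCL2L1 had 158, 158 and 160.4 CPM in the p53-null libraries and 299, 262 and 271 CPM in the p53-WT libraries. The lowest p53-WT library lay well above the highest p53-null library. The log2 fold change was 0.80 (with SE 0.10, edgeR adjusted p = 2.7e-05), or 1.75-fold. BCL2 had 8.06, 10.1 and 10.2 CPM in p53-null and 2.75, 3.48 and 3.30 CPM in p53-WT libraries (log2 fold change -1.57, SE 0.17, adjusted p = 8.0e-06), or 2.98-fold lower. BCL2L2 had 18.4 to 19.9 CPM in p53-null and 22.9 to 26.1 CPM in p53-WT libraries (0.33, SE 0.11, adjusted p = 0.0187). This call failed without p53-null replicate 2 (adjusted p = 0.0528) or p53-WT replicate 2 (adjusted p = 0.0768).

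BCL2A1, an NF-kappa B target known mainly from blood cells, was near the limit of detection. It had 2, 1 and 1 counts in the p53-null libraries and 26, 24 and 24 counts in the p53-WT libraries. The ratio of the summed counts, 74 against 4, scaled to library size, was 18.6 with an exact 95% interval from 6.96 to 70.0, which covers counting error only. The edgeR adjusted p was 9.8e-06, and the level with p53-WT was still low, at 1.14 ± 0.0703 CPM (n = 3).

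Among the IAP genes, BIRC2 had 109.8, 87.6 and 88.9 CPM in p53-null and 55.1, 73.3 and 66.3 CPM in p53-WT libraries. The groups did not overlap, and the log2 fold change was -0.56 (SE 0.14, adjusted p = 0.00382). Replicate 1 was the highest of the p53-null and the lowest of the p53-WT libraries. Without replicate 1 of both lines the log2 fold change was -0.33 (adjusted p = 3.6e-04). XIAP had 40.5, 48.7 and 44.4 CPM in p53-null and 19.9, 38.6 and 41.7 CPM in p53-WT libraries, and did not pass (-0.42, 95% interval -0.91 to 0.08, adjusted p = 0.122). The groups overlapped, and p53-WT replicate 1 was far below the other libraries. Without replicate 1 of both lines, XIAP was lower by a smaller amount and passed (-0.20, adjusted p = 0.0254), as it did without p53-WT replicate 3 (-0.61, adjusted p = 0.0337). BIRC6 had 61.2 to 86.4 CPM in p53-null and 56.7 to 77.1 CPM in p53-WT libraries (-0.12, 95% interval -0.46 to 0.23).

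MCL1 had 271, 303 and 302.5 CPM in p53-null and 275.5, 386 and 381 CPM in p53-WT libraries. The groups overlapped through p53-WT replicate 1, and the difference did not pass (0.25, SE 0.14, 95% interval -0.05 to 0.55, adjusted p = 0.127). Without p53-WT replicate 1 it passed (0.39, adjusted p = 0.00318), and without replicate 1 of both lines the log2 fold change was 0.35 (adjusted p = 2.9e-05). In all, 5 of the 8 members passed with all libraries, 3 up and 2 down, where 66.5% of the 14272 tested genes passed. A count at that share is not a result about the members. Without replicate 1 of both lines, 7 members passed, where 74.3% of 14383 tested genes did. With all libraries and stricter rules, 2 members passed with a change exceeding 1 on the log2 scale, where 30.5% of all genes did, and 3 at an adjusted p under 0.001, where 40.2% did.

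The transcripts of MCL1 were assigned by kallisto from reads shared between forms, and their values are given as descriptions. MCL1-202, the full-length transcript, held 76.9% to 86.2% of the TPM of MCL1 in all 12 libraries. In TPM it had 122 and 123 in the DMSO libraries, 154 and 172 in the UCI-1001 libraries and 335 and 315 in the UCI-1014 libraries. MCL1-201, whose exon 1 to last exon junction is printed above, held 15.2% and 9.17% with DMSO, 18.6% and 11.6% with UCI-1001 and 11.2% and 12.9% with UCI-1014. These ranges overlapped, so that no shift between the forms was seen in TOV-112D cells beyond the spread of replicates. In the Saos-2 libraries the share of MCL1-201 was 0.657% to 2.34%, below all TOV-112D libraries. Another form, MCL1-205, went the other way, with 4.95 to 27.0 TPM in Saos-2 and at most 0.892 TPM in TOV-112D libraries. BCL2L1-203 likewise had 9.82 to 26.9 TPM in Saos-2 and at most 2.62e-08 TPM in TOV-112D libraries. The short forms of BCL2L1 held 24.1% to 35.2% of its TPM in TOV-112D and 19.2% to 23.1% in Saos-2 libraries. With p53-WT the share was 19.9% to 23%, against 19.2% to 23.1% in p53-null cells, while the TPM of BCL2L1-201 was 77.3 to 94.1 against 52.1 to 67.2. The depth of support for a single junction is unknown from these files, and the deposited models of several transcripts, MCL1-202 and BCL2L1-201 among them, are of another version than those of GENCODE release 44.

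**Figure D4:**
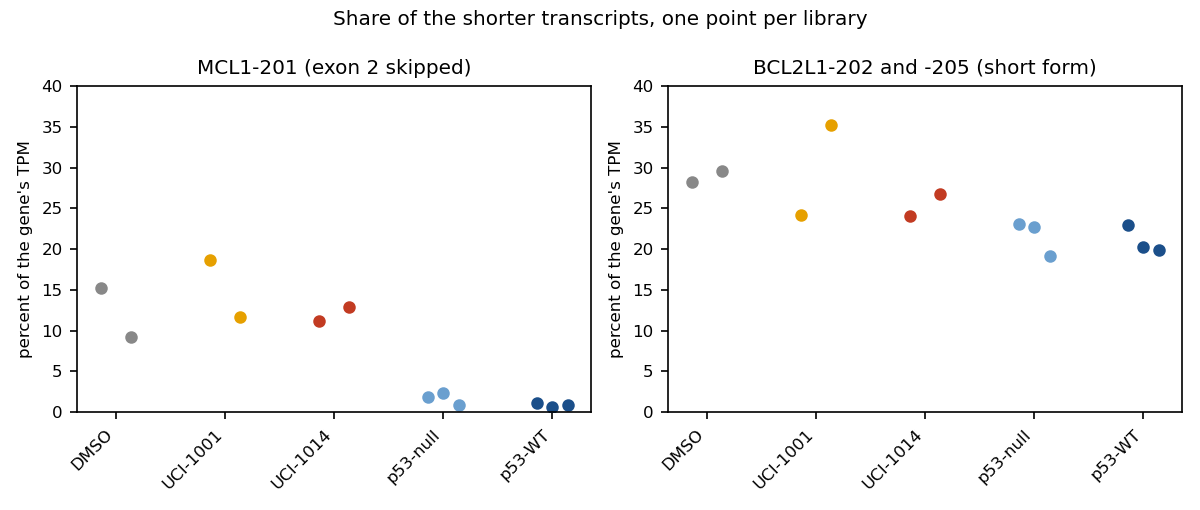
Share of the gene's TPM (vertical axis, percent) held by MCL1-201, left, and by BCL2L1-202 and BCL2L1-205 together, right, with 1 point per library, by group (horizontal axis). The share of MCL1-201 is 9.17% to 18.6% in TOV-112D and 0.657% to 2.34% in Saos-2 libraries.

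AU-rich elements in 3′ untranslated regions are a known feature of short-lived RNAs, and their core letters, ATTTA, were counted on the transcript strand, overlaps included, in the main 3′ untranslated region of each member. MCL1 had 10 in 2817 bases, or 3.55 per kb, a density above that of 79.3% of 18463 genes. BIRC2 and BIRC6 had 6.16 per kb, above 94.4% of genes, in shorter regions of 487 and 974 bases. XIAP had 20 in 6791 bases (2.95 per kb) and BCL2 13 in 5279 bases (2.46 per kb). BCL2L1 and BCL2L2 had 2.01 and 1.80 per kb, near the median of all genes of 1.59 per kb, and BCL2A1 had 0. At least 1 match was found in 69.4% of genes, so that a match is a description of the letters and not of a regulated site.

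Several of the 8 share sequence with other loci, which kallisto can split. The readthrough gene BCL2L2-PABPN1 had 56 to 165 counts per library, against 399 to 635 for BCL2L2. Its counts differed within the DMSO pair, with 156 and 67, against 74 and 97 with UCI-1001. Whether the BCL2L2 call with UCI-1001 would hold with these counts added was not tested. The XIAP pseudogenes had at most 15 counts in any library, against 448 or more for XIAP. For BCL2L2, XIAP and BIRC2 the deposited gene count differed by more than 1 from the sum over the deposited transcripts, and these 3 could not enter the fit with a length offset.

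The other genes of the pathway were taken from 6 lists with 30 genes in all, namely other prosurvival and IAP genes, effectors, BH3-only genes, IAP antagonists, the caspase core and regulators of MCL1 turnover. With UCI-1001, 5 of the 26 tested list genes rose and 0 fell by edgeR. At an unadjusted p under 0.05 the counts were 8 and 1, and with DESeq2 they were 3 and 0. Over all tested genes, 15.8% passed, 9.39% upward and 6.36% downward. The lists' total, without regard to direction, is thus not far from the background, although all 5 edgeR calls were upward. Among the BH3-only genes, 3 of 7 rose. They were PMAIP1, whose product NOXA binds MCL1 (log2 fold change 1.19, SE 0.12, 12.2 to 27.9 CPM), HRK (1.12, SE 0.33, 0.848 to 1.85 CPM) and BID, by less. None of the 3 effectors and none of the 4 tested prosurvival and IAP genes passed. DIABLO, the gene of the IAP antagonist SMAC, rose by 0.30 on the log2 scale, and USP9X, a deubiquitinase that stabilises MCL1 protein, by 0.15. The median over the 26 genes was 0.00, the same as over all genes.

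With UCI-1014, 12 of the 26 rose and 5 fell, where 47.1% of all tested genes passed, 23.7% upward and 23.4% downward. DESeq2 gave 10 and 3 of the 29 list genes with counts in its fit. BIRC3, the gene of cIAP2 and the neighbour and close paralogue of BIRC2, had 2.47 and 2.71 CPM with DMSO and 11.2 and 13.6 CPM with UCI-1014 (log2 fold change 2.26, SE 0.18). It was the prosurvival gene with the largest rise, from a level far below that of MCL1. Among the 7 tested BH3-only genes, 5 rose and BAD fell. HRK (2.28, SE 0.30), PMAIP1 (1.95, SE 0.11) and BBC3 (1.16, SE 0.20) passed a log2 fold change of 1, and PMAIP1 reached 47.4 CPM from 12.2 CPM. Among the IAP antagonists, XAF1 rose by 1.06 (SE 0.32), from 1.08 to 2.26 CPM, and DIABLO by 0.61. In the MCL1 turnover list, USP9X rose by 0.63 and HUWE1, a ubiquitin ligase of MCL1, by 0.20, whereas FBXW7 and BTRC did not pass. The median over the 26 genes was 0.06, against -0.02 over all genes. BIRC3 was also higher with UCI-1014 than with UCI-1001, by 1.75 (SE 0.17), as were BBC3 by 1.34 (SE 0.20) and HRK by 1.16 (SE 0.27). In that comparison 8 of the 26 were higher and 2 lower, where 31.1% of all tested genes passed. DESeq2 gave 7 and 1.

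With p53-WT, 15 of the 26 tested list genes rose and 5 fell, with a median log2 fold change of 0.81 against -0.01 over all genes. Over all tested genes, 66.5% passed, 33.5% upward and 33% downward. DESeq2 also gave 15 and 5, of the 28 list genes with counts in its fit. All 7 tested BH3-only genes passed, 6 of them upward. BIK (4.56, SE 0.22), BBC3 (3.80, SE 0.14), BCL2L11, the gene of BIM (2.48, SE 0.14), and BID (1.59, SE 0.11) had the largest changes, and HRK fell (-1.04, SE 0.20). The effectors BAX (2.31, SE 0.11) and BAK1 (2.19, SE 0.11) rose, and BOK fell by 0.46. In the caspase core, APAF1 rose by 3.69 (SE 0.14), while CYCS fell by 0.79. Among the other prosurvival and IAP genes, BIRC5, the gene of survivin, which is expressed in dividing cells, fell by 3.23 (SE 0.14), and CFLAR, the caspase-8 inhibitor FLIP, rose by 1.22 (SE 0.10). SEPTIN4, whose ARTS form antagonises XIAP, rose by 5.96 (SE 0.18), from 0.624 to 39.2 CPM. In the MCL1 turnover list, FBXW7 rose by 1.80 (SE 0.15) and USP9X by 0.77. Without replicate 1 of both lines, a setting chosen after seeing the data, 16 of the 26 rose and 6 fell, where 74.3% of all tested genes passed. BIRC3 (log2 fold change 0.53) and HUWE1 (-0.42) then passed, and CYCS had -0.45. No call was lost.

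**Figure D5:**
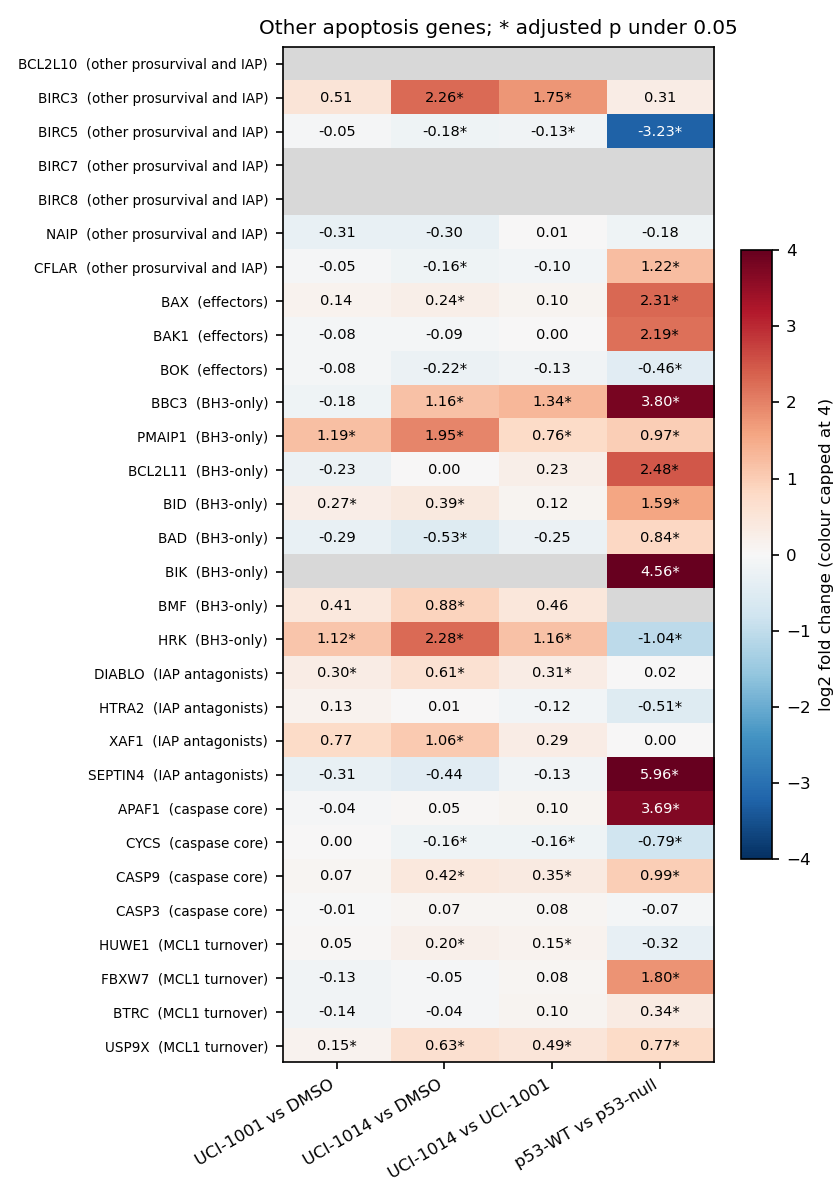
edgeR log2 fold change of the 30 other apoptosis genes (vertical axis, with their list) in 4 comparisons (horizontal axis), with colour capped at 4 and an asterisk at an adjusted p under 0.05. Grey cells were not tested because of low counts. BIRC3 stands at 2.26 with UCI-1014 and BIRC5 at -3.23 with p53-WT.

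Genes whose pattern over the 12 libraries came nearest to each member were sought among 12936 genes tested in both lines, by the root mean square difference of log2 CPM after each cell line had been centred. The nearest to MCL1 were BACH1 (0.0719), PPP2CB (0.0803), BHLHB9 (0.101), ABL2 (0.104) and DCUN1D3 (0.113), where MCL1 itself differed from a flat pattern by 0.433. For the other members the nearest gene was ALMS1 for BCL2, ESYT1 for BCL2L1, USP40 for BCL2L2, TM9SF3 for XIAP, POT1 for BIRC2 and NF1 for BIRC6, at distances of 0.0390 to 0.0753. The 12 points share libraries and depth, and these neighbours are given as a description.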

How the data were processed

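RNA was measured in 12 libraries. The authors used kallisto 0.48.0 and GRCh38, and their notes also name DESeq2 1.38.3. They deposited a table of integer counts for 40295 genes, each obtained from the kallisto values of its transcripts, and for each library the expected counts, TPM and effective lengths of 187626 transcripts. No reads were counted again here.

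Counts were summed by symbol (36482 keys) and tested with edgeR 4.0.16 in R 4.3.3 (TMM, filterByExpr defaults, quasi-likelihood test, Benjamini-Hochberg adjustment over all genes tested, threshold 0.05), with a fit per cell line and a fit of all 12 libraries for the comparison between lines. The TPM deposited by the authors was summed per member and entered no test, and the expected counts and effective lengths entered only the length offset. SE is the log2 fold change divided by the root of the F statistic. Alternatives were DESeq2 1.42.0, other size factors, no filter, unsummed identifiers, other fits, left-out libraries and a replicate block. The scripts were tested on simulated data. SEPTIN4 is listed under a date-like name and was found by its identifier. Sequences and coordinates are from GRCh38 and GENCODE release 44.

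The members, lists and tests were chosen with earlier results of these data known. Named were the 8 members, up to 4 list genes per list and comparison with the largest change among those past the threshold whose log2 fold change exceeded 1 in size, and the nearest genes by pattern (5 for MCL1, 1 for each other tested member). BID, DIABLO, USP9X, HUWE1, FBXW7, BTRC, BAD, BOK, CYCS and HRK were named outside this rule in some comparisons, after their values were seen. The labels do not say whether replicate numbers pair the libraries, and the main tests did not use them as pairs. Some genes of the lists are not reported here.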

Additional observations from a re-analysis of the deposited data

How the results depend on the processing

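Of 430 member log2 fold changes under an alternative, 377 kept their direction and side of the threshold, 31 lost a call, 11 gained one and 11 changed sign, none of the last being called in the main analysis. DESeq2 was run without the count filter, on 22906 genes with counts and 8 members in TOV-112D cells. Any gene that it left without an adjusted p counted as not called. With it, UCI-1001 changed 1138 genes and 1 member, and the compounds differed in 2639 genes. A fit of all 12 libraries tested 15790 genes and 8 members. It gave 309 genes and 0 members for UCI-1001, 3418 and 3 for UCI-1014, and 937 and 1 between the compounds. The length offset, which lacked 3 members, tested 11975 genes and 4 members in TOV-112D cells. It gave 665, 3960 and 1954 genes and 1, 2 and 1 members for these comparisons. For p53-WT it gave 7622 of 12020 tested genes and 3 of 5 tested members. Where the log2 fold change also had to exceed 1 in size, 0 members passed for UCI-1001, 1 for UCI-1014 and 2 for p53-WT, where 1.31%, 5.48% and 30.5% of all genes did. At an adjusted p under 0.001, 1, 3 and 3 members passed, against 3.89%, 23.8% and 40.2% of all genes. Leaving out a library in turn gave 1 to 2 members and 952 to 1842 genes for UCI-1001, 5 to 6 and 5058 to 6031 for UCI-1014, 2 to 3 and 3008 to 3803 between the compounds, 4 to 6 and 8595 to 9768 for p53-WT and 5 to 6 and 10634 to 11448 between the lines. The fits with a library left out tested 14552 to 14599 genes in TOV-112D cells and 14489 to 14580 genes in Saos-2 cells. The cause of the changes between settings was not tested.

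Sign changes were to 0.012 for BCL2 with UCI-1014 (length offset), -0.001 for BCL2 between the compounds (without UCI-1014 replicate 2, in a leave-one-out range up to 0.168), 0.019, 0.0 and 0.013 for BIRC6 with p53-WT (length offset, without p53-null replicate 2, without p53-WT replicate 1, with -0.251 as the lowest leave-one-out value), and, for MCL1 between the lines, 0.004 (DESeq2, other size factors, without DMSO replicate 1), 0.116 (length offset), 0.022 and 0.019 (without p53-null replicate 2 or 3, with -0.064 as the lowest leave-one-out value). With CPM in place of TPM, the share of MCL1 was 45.2% with DMSO, 50.7% with UCI-1001, 66.3% with UCI-1014, 42% in p53-null and 42% in p53-WT cells, since CPM does not correct for length.

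Same-numbered libraries did not deviate together in every pair (correlations of 0.213, 0.319 and 0.0212 in Saos-2 cells and -0.216 to 0.0556 in TOV-112D cells), and in Saos-2 cells not every library correlated best with its own number. A replicate block was fitted to the same 14174 TOV-112D and 14272 Saos-2 genes as the main fits. It gave 3 members and 1774 genes for UCI-1001, 5 and 6306 for UCI-1014, 2 and 3880 between the compounds and 7 and 9814 for p53-WT. With the pairing crossed between the compounds, chosen after seeing the data, 3 members and 4977 genes differed.

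With 2 libraries per TOV-112D group, calls rest on a spread shared between genes, with a biological coefficient of variation of 3.59% in TOV-112D and 12.3% in Saos-2 libraries. Differences in BCL2A1 in TOV-112D cells were not detectable at this depth.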
